A study of Mus musculus with 2 samples.

Results

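Transcripts of bone morphogenetic protein (BMP) signalling genes and of Id genes were compared between mouse embryonic fibroblasts (MEFs) with and without Fut8. MEFs are cells grown out of the connective tissue of embryos. Activity of the BMP pathway itself was not measured. Fut8 encodes the fucosyltransferase responsible for core fucose on N-glycans. The genes described are Id1, Id2, Id3, Id4, Smad6, Smad7, Bmp4, Bmpr1a, Bmpr2 and Grem1, which are 10 of the 18193 genes that have a probe set of their own name on these arrays, and they were found by exact gene symbol through 22 probe sets. They were chosen from values of the same contrast, so the differences below describe the members and are not tests of them. Total RNA, labelled with biotin, was hybridised from Fut8+/+ cells (both normal copies) and Fut8-/- cells (homozygous for the disrupted gene), 1 array each. Both samples were labelled as the cell line MEF and were grown in the same serum-containing medium without a stated treatment. The sources used here do not say how the Fut8-/- cells were derived, how old the embryos were, or whether an array read 1 dish or a pool of the 3 cultures per genotype that the design text names. With 1 array per genotype no difference has a replicate check and no p-value is given. Genotype cannot be told apart from any other difference between the samples.

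BMP ligands bind pairs of type I and type II serine/threonine kinase receptors. The type I receptor phosphorylates the receptor Smads 1, 5 and 9, which enter the nucleus with Smad4 and switch on target genes. The Id genes are the classic direct targets. They encode small helix-loop-helix proteins without a DNA-binding region, which pair with E proteins and keep them off DNA. Smad6 and Smad7, the inhibitory Smads, are also induced by the pathway and dampen it. Secreted antagonists such as gremlin (Grem1) bind the ligand outside the cell. In fibroblasts and other mesenchymal cells the pathway is known for its part in cartilage, bone and limb patterning.

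Short sequence elements bound by Smads are known in promoters of such targets, and the promoters of the higher members with an entry in the RefSeq-derived table (assembly GRCm38.p6) are shown for that reason. The table gave a window of 300 bases, 250 before to 50 after the annotated start, for 8 of the 10 members, and Id1 and Smad7 are named only. The bases before the start are printed 5′ to 3′ on the strand of the gene, with 4 more bases for Smad6 so that a motif at the start stays whole. Capitals mark the motifs GGCGCC (a GC-rich Smad element), GTCTAGAC (the palindromic Smad element) and GCCGNCGC (the Mad/Smad consensus), each searched on both strands.
Id3 (chr4:136143572-136143821, plus strand): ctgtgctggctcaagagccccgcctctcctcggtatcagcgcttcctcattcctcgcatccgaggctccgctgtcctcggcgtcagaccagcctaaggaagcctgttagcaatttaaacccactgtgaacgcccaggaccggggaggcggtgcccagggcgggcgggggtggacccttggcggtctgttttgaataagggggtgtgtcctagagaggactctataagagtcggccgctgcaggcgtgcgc
Bmp4 (chr14:46390670-46390919, minus strand): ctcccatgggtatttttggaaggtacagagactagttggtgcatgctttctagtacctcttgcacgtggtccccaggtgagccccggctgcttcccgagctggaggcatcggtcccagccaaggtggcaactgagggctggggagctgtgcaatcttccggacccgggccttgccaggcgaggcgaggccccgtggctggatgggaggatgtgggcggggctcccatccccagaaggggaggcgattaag
Smad6 (chr9:64022056-64022309, minus strand): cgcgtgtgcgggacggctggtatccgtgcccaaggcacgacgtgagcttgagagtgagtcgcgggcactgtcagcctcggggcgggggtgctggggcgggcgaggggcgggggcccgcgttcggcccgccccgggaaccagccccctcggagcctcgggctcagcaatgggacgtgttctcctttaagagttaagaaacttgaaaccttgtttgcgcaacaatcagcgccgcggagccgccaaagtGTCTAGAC
Id2 (chr12:25096093-25096342, minus strand): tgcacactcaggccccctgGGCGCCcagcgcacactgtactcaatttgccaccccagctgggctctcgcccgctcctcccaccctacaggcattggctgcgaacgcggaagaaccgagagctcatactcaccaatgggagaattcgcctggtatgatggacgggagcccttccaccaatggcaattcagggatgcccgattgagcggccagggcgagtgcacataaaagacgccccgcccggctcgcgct

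The palindrome GTCTAGAC lay in the Smad6 window, starting 4 bases before the annotated start, and in no other member window. It was present in 70 of 32851 promoter windows, or 0.213%. The element GGCGCC lay in 5 of the 8 member windows (Id2, Id4, Bmpr1a, Bmpr2 and Grem1), against 11.9% of all windows. The consensus GCCGNCGC lay in 3 of the 8 (Id4, Bmpr1a and Grem1), against 9.76% of all windows, and in Bmpr1a and Grem1 some of its matches overlapped the GGCGCC match. The shorter motif GTCT or its complement AGAC, which is part of the palindrome, lay in 6 of the 8 and in 88.0% of all windows. The 8 windows had 59.3% to 79.3% G and C, against a median of 52.7% over all windows, and 2 of the 3 longer motifs are made of G and C. The windows of Id3 and Bmp4 held none of the 3 longer motifs. Matches are a description of these letters in these windows.

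The measurements are linear signal intensities, 1 per probe set and array. The brightest of the 3 Fut8 probe sets gave 191 for Fut8+/+ cells and 11.7 for Fut8-/- cells. The sources used here do not say whether it reads the disrupted part, so it is no check of the label by itself. Transcripts of the sex chromosomes were unlike too, in the order Fut8+/+, Fut8-/-. Xist had 656 and 15.2, and the Y-linked genes Eif2s3y and Kdm5d had 7.06 and 2845, and 0.404 and 655. This is the pattern of female cells on the Fut8+/+ array and of male cells on the Fut8-/- array. Sex therefore cannot be told apart from genotype in any ratio given here. Of 12 fibroblast markers 8 were measured, among them Vim (11471 and 11111) and Col1a2 (11280 and 9433), while Thy1, Dcn, Lum and Fap were not. Of the 8, Fn1 (4734 and 1254), Col1a1 (2832 and 941) and Pdgfra (61.9 and 23.6) were 3.25-fold, 2.59-fold and 2.26-fold lower, Pdgfrb was 2.13-fold higher (342 and 626), and 4 lay between. The summed signal of this list was 40281 and 34513.

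Signals below are given as deposited, first for Fut8+/+ and then for Fut8-/-. Ratios are log2 of Fut8-/- over Fut8+/+ after the Fut8-/- signals had been multiplied by 1.16, which sets the median ratio of the brighter probe sets to 0, and after signals under 12.3 had been raised to that floor. A gene was taken as measured if its signal on either array came to 39.1, and as higher or lower at a ratio of 2-fold or more. Between probe sets of one gene the log2 ratios had an SD of 0.40 (5389 genes), which is a spread between probe sets within this pair of arrays and not an error between cultures.

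The Fut8-/- array had higher signals for the ligand gene Bmp4, for the targets Id1, Id2 and Id3, and for the inhibitory Smad gene Smad6. The receptor genes Bmpr1a and Bmpr2 and the other inhibitory Smad gene, Smad7, were within 2-fold. Id4 and Grem1 stayed under the measured limit on both arrays. Thus 8 of the 10 members were measured, of which 5 passed 2-fold upwards, 0 downwards and 3 neither. Across all 10164 measured genes the share past 2-fold was 6.08% upwards and 8.46% downwards. At 4-fold or more the count was 4 higher members (Id2, Id3, Smad6 and Bmp4) and 0 lower, beside 1.68% and 2.74% of all measured genes. Among the 6085 genes whose mean log2 signal lay within the range of the measured members, the share past 2-fold was 3.89% upwards and 5.21% downwards. Since this contrast chose the members, nothing is read from the counts. The median log2 ratio of the measured members was 1.82, against 0.0003 for all measured genes, and it was 0.77 with no filter, when Id4 and Grem1 enter. Whether a sample held more cells with these transcripts or more RNA per cell cannot be told apart in such bulk RNA.

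**Figure D1:**
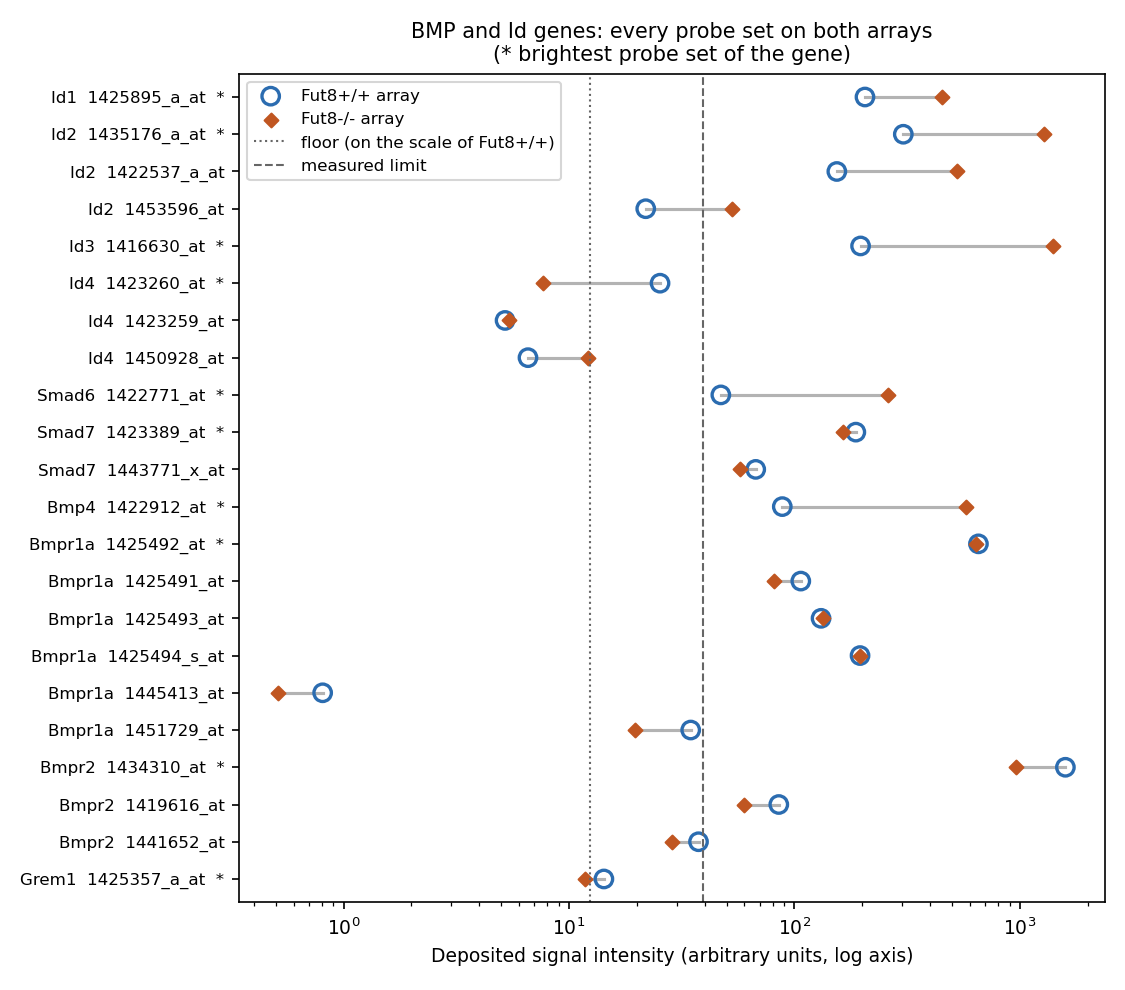
Deposited signal intensity (horizontal, log axis, arbitrary units) of all 22 probe sets of the 10 BMP and Id genes. Open circles are the Fut8+/+ array and diamonds the Fut8-/- array. The dotted and dashed lines are the floor of 12.3 and the measured limit of 39.1, both on the scale of Fut8+/+, whereas the diamonds are unscaled. The diamonds of Id1, Id2, Id3, Smad6 and Bmp4 lie to the right of their circles. At the brightest probe sets of Bmpr1a, Smad7 and Grem1 circle and diamond lie close together.

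Bmp4, the ligand, was read by 1 probe set (1422912_at). Its signals were 88.3 and 578, a log2 ratio of 2.93 or 7.62-fold. Both signals were above the measured limit. Of the 10164 measured genes 63, Bmp4 included, had a ratio at least as high. Of 12 other BMP ligand genes 9 had a probe set of their own name, and only Gdf2 (46.5 and 22.2, log2 ratio -0.85) reached the measured limit. Bmp2 (0.392 and 0.363) was under the floor on both arrays, and Bmp7 (22.8 and 14.2) was under the measured limit. Bmp4 and Gdf2, the measured ligand genes, thus lay on opposite sides of 0, but Gdf2 was under the measured limit in Fut8-/- cells. With the floor at the 60th percentile the Gdf2 log2 ratio was -0.25, smaller than the spread between probe sets.

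Grem1, the secreted antagonist that binds Bmp4 and Bmp2, was dim on both arrays, with signals of 14.3 and 11.8 at its 1 probe set. After scaling both lay just above the floor, and the log2 ratio of -0.05 has little meaning at this level. Among 15 other genes for extracellular regulators of BMP and related ligands, 7 were measured, 1 higher, 2 lower and 4 between, with a median of -0.18. Fst encodes follistatin, which binds activins and some BMPs. It had signals of 140 and 31.7 (3.80-fold lower), and its dimmer probe set, under the floor in Fut8-/- cells (70.1 and 5.56), was also lower. Bmper, which encodes a BMP-binding secreted protein, was 2.95-fold lower (46.9 and 13.6), both signals being near the measured limit or under it, and its log2 ratio of -1.56 became -0.26 with the floor at the 60th percentile. Fstl3, a follistatin-like inhibitor of activin, was 2.19-fold higher (54.6 and 103), and 0.91 on the log2 scale without centring, under the 2-fold limit. The antagonist gene Nog was under the floor on both arrays (5.89 and 0.564), and Chrd (26.6 and 20.1) was under the measured limit.

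Bmpr1a, the type I receptor gene, had signals of 655 and 640 at its brightest probe set (1425492_at), a log2 ratio of 0.19. Of its 6 probe sets 5 lay above the floor on both arrays, with log2 ratios between -0.60 and 0.25 and 3 of the 5 above 0. These 5 were all designed on the same transcript entry, so they are not independent readings. Without centring the brightest probe set had a ratio of -0.03, so the Bmpr1a ratio has no settled sign and is smaller than the spread between probe sets.

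Bmpr2, the type II receptor gene, had signals of 1591 and 962 at its brightest probe set (1434310_at), a log2 ratio of -0.51 or 1.42-fold lower. The other probe sets gave -0.29 (85.2 and 59.9) and -0.17 (37.5 and 28.7). All 3 were lower on the Fut8-/- array, and the ratio at the brightest exceeds the spread between probe sets by little. Of 10 further receptor and co-receptor genes 6 were measured and all 6 lay within 2-fold, with a median of -0.08. The type II receptor gene Acvr2b (38.8 and 6.16, log2 ratio -1.65) fell just under the measured limit, its second signal being under the floor. It counted as lower without centring and without the filter. Its ratio was 0 with the floor at the 60th percentile and as the median over probe sets. The type I receptor gene Acvr1 had signals of 225 and 233 (log2 ratio 0.27), and the type II receptor gene Acvr2a 138 and 211 (0.84). Rgmb, a BMP co-receptor gene, had a log2 ratio of -0.98 (84.8 and 36.9) that reached -1.20 without centring but was -0.17 as the median over probe sets. Of its 6 probe sets 4 lay above the floor on both arrays, and 3 of these were lower. Thus no measured receptor or co-receptor gene was at least 2-fold higher.

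Inside the cell, the measured genes of the signal-carrying Smads lay within 2-fold but not on the same side of 0. Smad1 had signals of 795 and 408 (log2 ratio -0.75), and its 3 probe sets gave -0.95, -0.75 and -0.25. Smad5 had signals of 251 and 396 (0.87), and its 3 probe sets gave 0.87, 0.38 and 0.34. Smad5 lies on chromosome 13, where the 377 measured genes had a median of 0.56, and with each chromosome centred on its own median the Smad5 ratio was 0.39. Smad9, the remaining receptor Smad gene, was under the measured limit on both arrays (1.37 and 21.9, the first under the floor), and past 2-fold upwards only where no filter was set. Smad4, the shared partner, was brighter than the measured limit on both arrays at all 3 probe sets (1793 and 1261 at the brightest, log2 ratio -0.29). All 11 measured transducers and intracellular regulators of the 14 listed lay within 2-fold at their brightest probe sets, with a median of -0.23. They include the ubiquitin ligase genes Smurf1 (160 and 126) and Smurf2 (406 and 385), whose products mark Smads and receptors for degradation. The repressor genes Ski (425 and 292) and Skil (781 and 540) are also among them. As the median over probe sets the log2 ratio of Ppm1a, another of the 11, became -1.01 in place of -0.38, past 2-fold downwards. That of Smurf1 became -0.85 in place of -0.12.

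The inhibitory Smad genes differed from each other. Smad6, whose product mainly holds back the BMP branch, had signals of 47.1 and 261 at its 1 probe set (1422771_at), a log2 ratio of 2.69 or 6.43-fold, and 86 measured genes including Smad6 had a ratio as high. The Fut8+/+ signal lay only a little over the measured limit. Smad7, whose product acts on both the BMP and the TGF-beta branch, had signals of 187 and 164 (log2 ratio 0.03) at the brighter probe set and 67.3 and 57.4 (-0.01) at the dimmer. Both Smad7 ratios are far smaller than the spread between probe sets, and without centring the brighter gave -0.19.

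Id3 had the highest ratio of the members. Its signals were 196 and 1401 (1416630_at, 1 probe set), a log2 ratio of 3.05 or 8.30-fold, and 57 measured genes including Id3 had a ratio as high. Id2 was read by 3 probe sets, all of them higher on the Fut8-/- array. The brightest (1435176_a_at) had signals of 304 and 1278, a log2 ratio of 2.29 or 4.89-fold. The next (1422537_a_at) had signals of 154 and 524 (3.95-fold). The dimmest (1453596_at) had 21.9 and 53.0 (2.82-fold), its Fut8+/+ signal lying under the measured limit. Id2 is thus the 1 higher member for which separate probe sets can be set side by side, and the ratio was smaller the dimmer the probe set.

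Id1 had a smaller difference than the other higher members. Its signals were 205 and 453 (1425895_a_at, 1 probe set), a log2 ratio of 1.36 or 2.57-fold, with 357 measured genes including Id1 as high. In the order Id3, Bmp4, Smad6, Id2, each differed from the next by less than the spread between probe sets, and Id1 lay below Id2 by more than that spread. Id4 stayed dim at all 3 probe sets, with signals of 25.3 and 7.64, 5.20 and 5.42, and 6.58 and 12.2. The first was higher on the Fut8+/+ array and the last on the Fut8-/- array, and no Id4 probe set lay above the floor on both, so no direction is given.

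**Figure D2:**
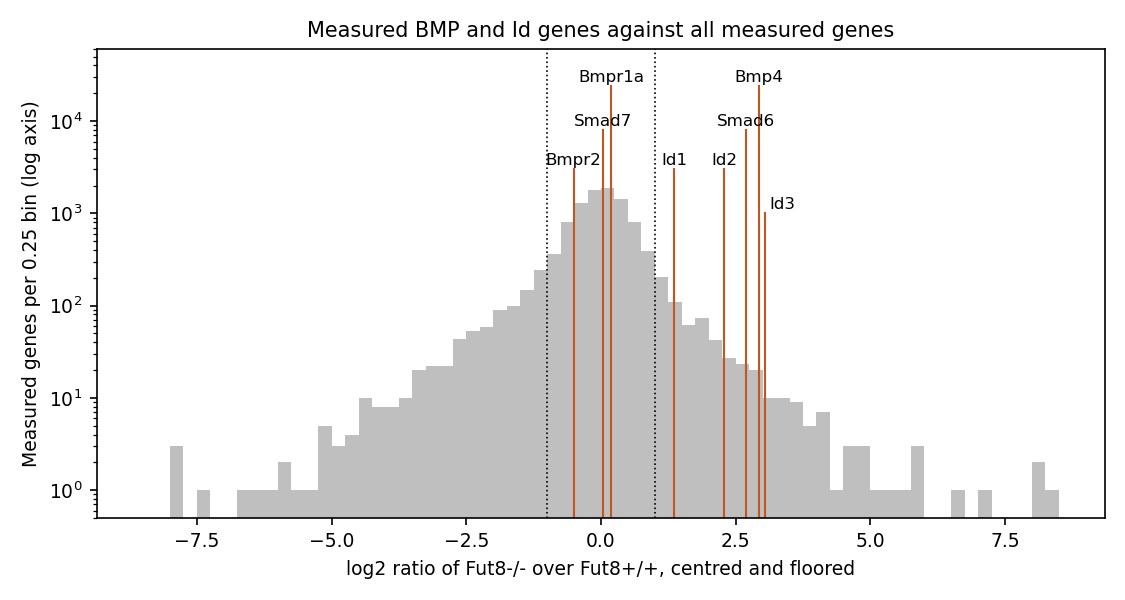
Number of measured genes (vertical, log axis) per bin of 0.25 in the centred and floored log2 ratio of Fut8-/- over Fut8+/+ (horizontal), for all 10164 measured genes, with vertical lines at the 8 measured BMP and Id genes and dotted lines at 2-fold. Bmpr2, Smad7 and Bmpr1a lie in the centre of the distribution and Id1, Id2, Smad6, Bmp4 and Id3 between 1.36 and 3.05 in its upper tail.

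Other genes known as BMP targets did not all lie on the side of the Id genes. Of 16 listed, 15 had a probe set of their own name and 7 were measured, 2 higher, 1 lower and 4 between, with a median of -0.25. The homeobox genes Msx1 (21.0 and 47.5, 2.63-fold) and Msx2 (33.6 and 72.0, 2.50-fold) were the higher ones. Both were near the measured limit, and the dimmer probe set of each lay under the floor in Fut8+/+ cells (5.60 and 17.1 for Msx1, 5.55 and 16.1 for Msx2). Msx2 is on chromosome 13, and its ratio of 1.32 became 0.84 when each chromosome was centred and 0.96 as the median over probe sets. With the floor at the 60th percentile the Msx1 ratio became 0.50. Gata2, a transcription factor gene, was 3.15-fold lower (133 and 36.2), and its other probe set was lower as well (50.8 and 10.7). The Notch and BMP target Hey1 was under the floor on both arrays (8.79 and 7.29), while Hes1 (128 and 93.0) and Junb (214 and 148) had log2 ratios of -0.25 and -0.31. The osteoblast genes Sp7 and Alpl were under the measured limit on both arrays.

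Transcripts of the proteins that Id factors bind were looked at next. Of 10 listed partner genes 8 were measured, all within 2-fold with a median of -0.24, and Tcf21 and Tcf15 were under the measured limit. The E protein genes Tcf3 (601 and 442), Tcf4 (793 and 458) and Tcf12 (2109 and 1916) had log2 ratios of -0.23, -0.58 and 0.08 at their brightest probe sets. The probe sets of each of these genes differed in sign, for Tcf3 and Tcf4 only at the dimmest, with log2 ratios of 0.26 and 0.16. The Tcf4 ratio exceeds the spread between probe sets, as does that of Ets2 (513 and 293, -0.59). The helix-loop-helix gene Twist1 had signals of 199 and 105 (-0.70), and its relative Twist2 had 1006 and 1038 (0.26).

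In the TGF-beta branch, which shares Smad4 and Smad7 with the BMP branch, all 9 genes with a probe set were measured, 1 higher, 2 lower and 6 between, with a median of -0.60. Tgfbi, a matrix gene, was 6.92-fold higher (141 and 841), with all 4 of its probe sets between 2.31 and 3.13 on the log2 scale. Tgfbi is on chromosome 13, and its log2 ratio of 2.79 became 2.31 when each chromosome was centred. The ligand gene Tgfb3 was 2.87-fold lower (172 and 51.6), and Ccn2, a matricellular gene, 4.36-fold lower (1080 and 213). The receptor Smad genes of this branch, Smad2 (326 and 212) and Smad3 (424 and 578), had log2 ratios of -0.40 and 0.66. Over all these lists together, 80 of 86 genes other than the members had a probe set and 48 were measured, 4 of them higher, 5 lower and 39 between, with a median of -0.30. These shares, unlike those of the members, come from lists by role, though they too were drawn up with earlier results known. Without centring the count was 3 higher and 10 lower, and over all measured genes 416 higher and 1205 lower, which makes higher genes 25.7% of those past 2-fold in place of 41.8%.

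**Figure D3:**
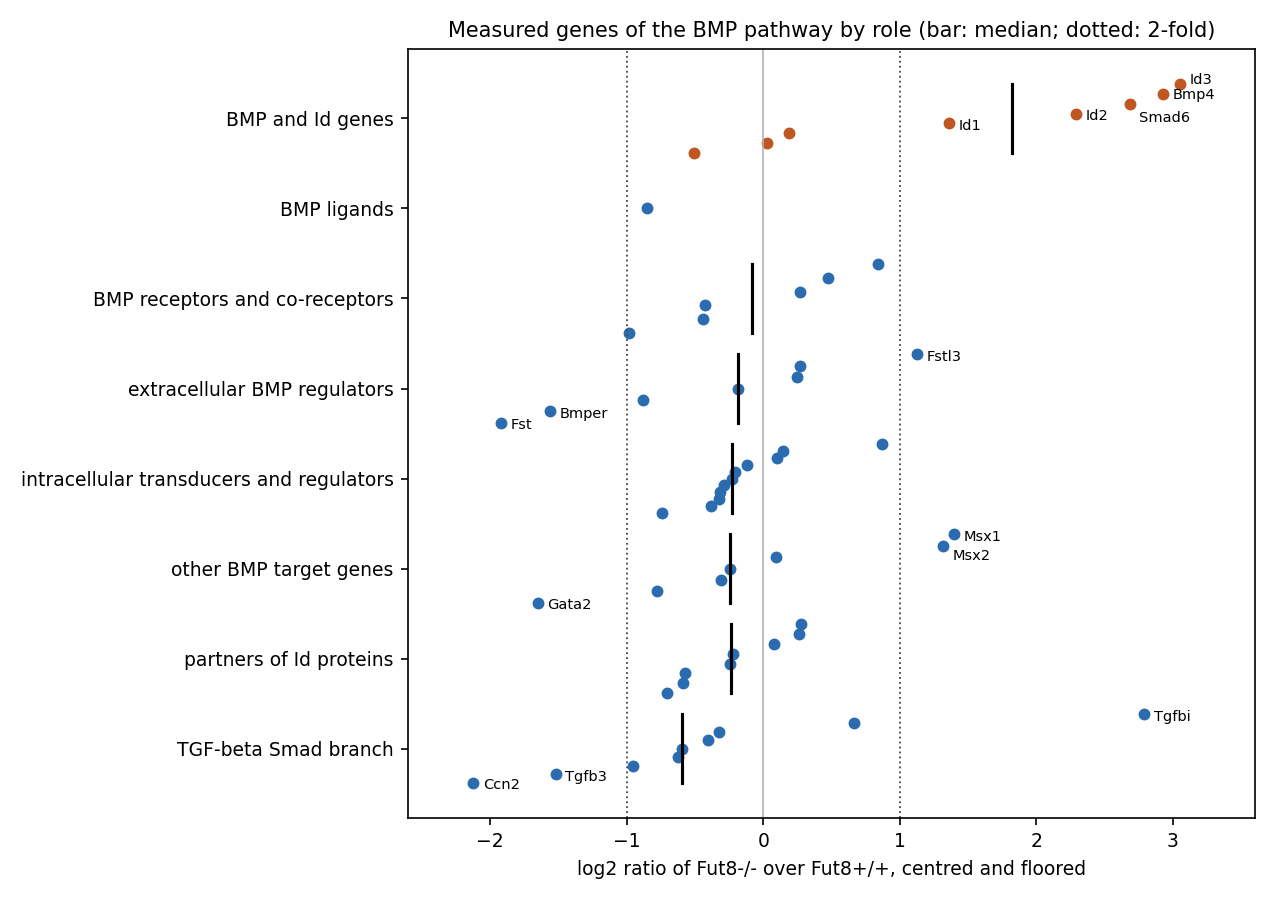
Centred and floored log2 ratio of Fut8-/- over Fut8+/+ (horizontal) of each measured gene, in rows by role, with the 8 measured BMP and Id genes in the top row; black bars are row medians, dotted lines mark 2-fold, and genes past 2-fold are named. The top row reaches 3.05, whereas the measured receptor, transducer and Id partner genes all lie between the dotted lines.

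The higher members are spread over the genome, on chromosome 2 (Id1), 4 (Id3), 9 (Smad6), 12 (Id2) and 14 (Bmp4). Their chromosomal neighbours were compared because ratios on these arrays also differed by chromosome. The 20 measured genes nearest to Id2, 10 on either side, had a median of -0.39, with 0 past 2-fold upwards and 2 downwards. On the whole of chromosome 12, which also carries Fut8, 7 of the other 360 measured genes passed 2-fold upwards and 51 downwards. Id2 was thus higher on a chromosome whose median was -0.38, and centring each chromosome moved its log2 ratio from 2.29 to 2.63. The neighbours of Id3 had a median of -0.22 with 1 higher (Nipal3, at 1.05), those of Smad6 a median of 0.17 with 0 higher, and those of Bmp4 a median of -0.02 with 0 higher. Smad3, which lies among the neighbours of Smad6, was the highest of them at 0.66. Only around Id1 were several neighbours as high, with 3 of 20 past 2-fold upwards, up to 2.68 at Sox12, and 2 downwards, down to -4.77 at Mcts2. Id4 lies on chromosome 13, where 73 of 377 measured genes passed 2-fold upwards, but was itself too dim for a ratio.

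**Figure D4:**
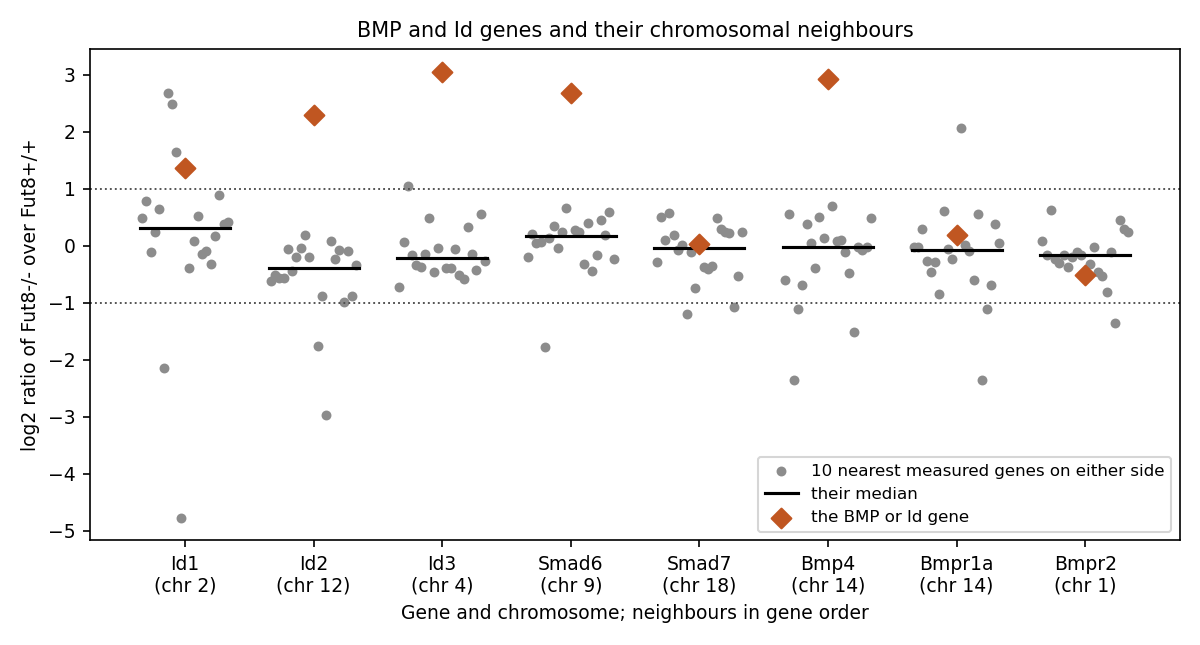
Log2 ratio of Fut8-/- over Fut8+/+ (vertical) of the 8 measured BMP and Id genes (diamonds) and of the 10 nearest measured genes on either side of each (grey points, in gene order), with the median of the neighbours as a black bar and dotted lines at 2-fold. The diamonds of Id2, Id3, Smad6 and Bmp4 lie above all of their neighbours, whereas Id1 lies among its own.

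Markers of other cell types that use BMP signalling were looked at beside these values. Endothelial cells are known for high Id1, Id3 and Smad6. Of 13 endothelial markers 2 were measured (Egfl7, 193 and 113, and Eng, 52.0 and 62.1), and the summed signal was 413 and 275. Pecam1 (8.97 and 0.630), Tie1 (1.06 and 0.611), Vwf (0.819 and 0.412) and Emcn (2.04 and 4.44) were under the floor on both. Kdr (29.1 and 17.5), Tek (19.8 and 10.7), Flt1 (23.8 and 15.2) and Cldn5 (19.9 and 26.2) lay between floor and measured limit on both after scaling. Plvap (37.7 and 7.53) and Esam (16.2 and 4.96) were under the floor only in Fut8-/- cells, and Cdh5 (9.49 and 11.8) only in Fut8+/+ cells. Of 7 chondrocyte and osteoblast markers with a probe set only Sox9 was measured (122 and 55.0), Col2a1 was under the floor on both (2.87 and 2.85), and the summed signal was 169 and 99.7. Of 10 epithelial markers 3 were measured, and Krt19 (2.08 and 155, at least 14.6-fold) and Dsp (5.07 and 71.1, at least 6.70-fold) were higher while Epcam was lower (44.9 and 15.9). The summed epithelial signal was 121 and 311. Cdh1 (6.70 and 1.14), Esrp1 (2.51 and 0.379), Krt18 (8.33 and 6.84) and Cldn4 (2.52 and 3.0) were under the floor on both. Krt14 (14.5 and 4.91) was under it only in Fut8-/- cells. Krt8 (15.5 and 27.4) and Krt5 (19.3 and 25.2), brighter in Fut8-/- cells, lay between floor and measured limit on both after scaling. For macrophages and leukocytes 2 of 8 were measured, the summed signal was 238 and 162, and Ptprc was under the floor on both (3.85 and 2.57). For skeletal muscle 3 of 8 were measured, the summed signal was 151 and 131, and Myog was under the floor on both (1.82 and 1.18). Within that sum Des was at least 4.53-fold lower (55.9 and 10.2) and Ckm 2.27-fold higher (22.8 and 44.6), although the probe sets of Ckm differed in sign. The part of other cells in the higher Id and Smad6 signals was not tested.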

How the data were processed

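The authors deposited 1 linear signal intensity per probe set and array for 45101 probe sets; the submitters' processing notes name GCOS, the Affymetrix operating software. The sources used here do not give its version, algorithm or scaling target, and no detection calls were used, so scale and centring stay unknown beyond the values being linear (medians 20.5 for Fut8+/+ and 16.9 for Fut8-/-). Names came from the platform's annotation table, in which 34945 probe sets had 1 symbol, 932 several and 9160 none, and 64 were controls. Of those with 1 symbol 34741 matched the RefSeq table of GRCm38.p6, which changed 0 symbols.

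Log2 ratios were centred on the median (-0.22) of the 23885 probe sets that exceeded the 40th percentile of each array, and signals were floored at the 40th percentile of the pooled scaled arrays. The measured limit was the 60th percentile. A gene was represented by the probe set with the highest mean log2 signal, which gave 18193 genes. Since there is 1 array per genotype, genes were counted by a fixed fold of 2, and the number of arrays limits the precision. All members, Fut8, every listed gene past 2-fold and 13 core pathway genes fixed by name were to be named; others were chosen after their values were seen. Members, gene lists, motifs and settings were chosen with earlier results of these data known. The steps were tested on simulated data. Python 3.11.15, pandas 2.3.3 and statsmodels 0.14.6 were used.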

Additional observations from a re-analysis of the deposited data

How the results depend on the processing

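The 5 higher members (Id1, Id2, Id3, Smad6 and Bmp4) were at least 2-fold higher under all 9 alternatives: no centring, quantile normalization, loess with a span of 0.4, floors at the 20th and 60th percentiles, no filter and a filter at the 75th percentile, the median over probe sets, and each chromosome centred. Their log2 ratios ranged from 1.14 to 1.39 for Id1, 1.98 to 2.63 for Id2, 2.83 to 3.25 for Id3, 2.47 to 2.75 for Smad6 and 2.71 to 2.96 for Bmp4. The floor and filter settings could not change these 5 ratios, since the signals at the probe sets used lay above every floor and the brighter ones above every filter. The median over probe sets could change only Id2, because the others had 1 probe set each. Smad7 (-0.19 to 0.20) and Bmpr1a (-0.03 to 0.19) changed sign within the spread between probe sets, and Bmpr2 stayed between -0.73 and -0.29. Id4 depended on the floor: its log2 ratio was -1.51 with the floor at the 20th percentile, and 0 with the floor at the 60th percentile and as the median over probe sets. Without the filter Id4 and Grem1 count as measured, so that 1 member was at least 2-fold lower and the members' median was 0.77. Of the other pathway genes 1 was higher and 2 lower with the filter at the 75th percentile, where 332 genes were higher and 448 lower in all, fewer genes being tested. Without centring, which moved the median of all measured genes by -0.23, 10 pathway genes were lower. Signal over background limits Id4, Grem1, Gdf2, Msx1, Msx2 and Bmper, which lay near or under the measured limit. No paired analysis was possible because each genotype has 1 array.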
